A study of Mus musculus with 4 samples.

Results

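The genes described here are 10 C-type lectin receptors of myeloid cells: Clec7a, Clec4n, Clec4d, Clec4e, Clec4b1, Clec5a, Clec12a, Clec4a2, Clec4a1 and Clec4a3. Each was found on the array through 1 probe set that carried 1 gene symbol, so 10 of the 17634 named genes kept are described. The members were chosen by name with their levels and log2 differences on these same 4 arrays known, so the counts and differences of its members are given as a description and no test was made on them. The RNA came from microglia, which are brain-resident macrophages, isolated from the whole brain of C57BL/6J males given OVA (the allergy group) or PBS (its control). Isolation followed an intranasal challenge by 1 day, and the mice were then P30 or P70, which is their age in postnatal days. Every group is a pool of 4 samples. The 4 groups were PBS at P30, OVA at P30, PBS at P70 and OVA at P70, and 1 array was run per pool. No group has a replicate, so no difference can be set against a spread, and the number of arrays limits the precision of every value. Levels are log2 of the deposited intensity, differences are log2 differences between 2 arrays, and a gene is called higher or lower at a difference of at least 1.5-fold (0.58 on the log2 scale). Genes with a mean level of at least 7.19, the median of such means over all genes kept, are called expressed. There were 8817 such genes, and 9 of the 10 receptors were among them. Clec4e, with a mean of 6.99, was not.

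C-type lectin receptors are surface proteins with a lectin-like domain through which macrophages, monocytes, neutrophils and dendritic cells sense glycans, lipids and material of dying cells. Activating members signal through the kinase Syk and the adaptor Card9, either by a motif in their own tail (Clec7a) or by an associated adaptor: Fcer1g for Clec4n, Clec4d, Clec4e and Clec4b1, and Tyrobp, also called DAP12, for Clec5a. Inhibitory members such as Clec12a and Clec4a2 carry a tail motif that recruits phosphatases, among them Ptpn6. In the brain, Clec7a is known as a gene that microglia raise around amyloid plaques and during development.

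The labelled cell type was checked against its markers. All 13 microglia markers measured were expressed on these arrays, among them Cx3cr1 and Siglech at 16.93 or more on each array. None of the 13 was called higher or lower in OVA at either age. Cx3cr1 differed by -0.14 at P30 and 0.00 at P70, the same as the highest values of the arrays compared. Its lack of a call therefore carries no information. The 13 microglia markers do not bear on purity, as neutrophil genes were also bright. S100a8 was at 13.38 and 11.85 on the P30 arrays and 18.28 and 17.77 on the P70 arrays, PBS before OVA. The median difference of all expressed genes between OVA and PBS was -0.01 at the younger age and 0.09 at the older one, and between P70 and P30 it was 0.25 for PBS and 0.38 for OVA. The age comparisons in particular depend on the scaling between arrays. After quantile normalization their medians were -0.02 in PBS and -0.03 in OVA. The share of called genes that were higher at P70 went from 90.6% to 54.1% in PBS and from 89.8% to 52.2% in OVA. For OVA minus PBS at P70 the share of called genes that were higher went from 76.9% to 50.7%. Values after quantile normalization are therefore given for the differences described in most detail. On bulk RNA, fewer cells of a type and less RNA per cell cannot be told apart.

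All 10 receptor genes lie on chromosome 6 in the RefSeq annotation of the mouse assembly GRCm38.p6, which was used here for names and gene order. Clec4a1, Clec4a3, Clec4b1, Clec4a2, Clec4n, Clec4d and Clec4e follow each other in that order, with the family members Clec4a4 and Clec4b2 as the other named genes next to them inside the run. Clec12a and Clec7a lie further along the same chromosome, and Clec5a lies apart from both groups. The first named genes on either side of the receptors that are not receptors of this list numbered 10, of which 4 were expressed: Necap1, Clec4a4, Clec4b2 and Cd163. None of these 4 was called higher or lower in OVA at either age. Clec4a4, between Clec4a3 and Clec4b1, was higher at P70 than at P30 by 1.44 in PBS and by 1.39 in OVA, whereas Clec4b2, between Clec4a2 and Clec4n, differed by 0.03 and -0.17. The Clec4a and Clec4b genes are closely related copies, and whether a probe set also binds RNA of a neighbouring copy was not tested.

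Promoter windows of 300 bases, reaching from 250 bases before the transcription start to 50 after it, were read from the RefSeq table of GRCm38.p6 and were found for 9 of the 10 receptors, all but Clec4n. Clec7a, Clec12a and Clec4b1 were higher in OVA than in PBS at P70. Clec5a and Clec4a2 were higher at P70 than at P30, with OVA and PBS close together at P70. The windows of these 5 receptors are printed for that contrast. They lie at chr6:129472730-129473029 (minus strand) for Clec7a, chr6:129349994-129350293 (plus strand) for Clec12a, chr6:123049712-123050011 (plus strand) for Clec4b1, chr6:40585756-40586055 (minus strand) for Clec5a and chr6:123122440-123122739 (plus strand) for Clec4a2. Each is written 5' to 3' along the gene, and capitals mark GAGGAA on either strand, the core sequence bound by the myeloid transcription factor PU.1.
Clec7a: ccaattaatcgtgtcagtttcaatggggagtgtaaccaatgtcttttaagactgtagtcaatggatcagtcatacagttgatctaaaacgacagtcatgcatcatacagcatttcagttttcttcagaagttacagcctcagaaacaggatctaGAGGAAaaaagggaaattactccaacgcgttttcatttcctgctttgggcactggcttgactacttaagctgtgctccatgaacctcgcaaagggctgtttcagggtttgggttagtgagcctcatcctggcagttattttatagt
Clec12a: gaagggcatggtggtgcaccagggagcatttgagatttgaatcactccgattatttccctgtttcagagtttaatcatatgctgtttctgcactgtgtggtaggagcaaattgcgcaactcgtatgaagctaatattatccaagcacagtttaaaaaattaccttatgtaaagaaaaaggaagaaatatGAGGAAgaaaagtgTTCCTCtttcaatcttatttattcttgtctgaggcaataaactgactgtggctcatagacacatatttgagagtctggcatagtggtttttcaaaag
Clec4b1: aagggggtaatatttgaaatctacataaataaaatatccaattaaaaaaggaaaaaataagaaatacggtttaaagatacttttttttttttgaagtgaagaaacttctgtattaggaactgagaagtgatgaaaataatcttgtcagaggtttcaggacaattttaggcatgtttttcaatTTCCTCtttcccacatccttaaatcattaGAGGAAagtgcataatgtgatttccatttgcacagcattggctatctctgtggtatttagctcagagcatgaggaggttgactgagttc
Clec5a: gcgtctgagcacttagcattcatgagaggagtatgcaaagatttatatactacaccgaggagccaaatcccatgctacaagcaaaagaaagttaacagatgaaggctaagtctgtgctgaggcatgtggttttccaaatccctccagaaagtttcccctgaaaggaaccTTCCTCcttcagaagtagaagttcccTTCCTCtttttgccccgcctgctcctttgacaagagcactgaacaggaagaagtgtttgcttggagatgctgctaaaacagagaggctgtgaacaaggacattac
Clec4a2: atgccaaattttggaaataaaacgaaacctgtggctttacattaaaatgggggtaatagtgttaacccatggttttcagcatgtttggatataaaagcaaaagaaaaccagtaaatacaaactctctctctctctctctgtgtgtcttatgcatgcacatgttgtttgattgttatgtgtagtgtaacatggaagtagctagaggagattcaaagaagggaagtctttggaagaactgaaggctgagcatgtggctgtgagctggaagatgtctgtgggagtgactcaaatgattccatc
The core was present in the windows of 7 of the 9 receptors, taking the first window listed for each gene: Clec5a, Clec4a1, Clec4b1, Clec4d, Clec4e, Clec12a and Clec7a. A second window listed for Clec4a3 holds the core as well, at -50, so the choice of window decides that gene. Among all 32851 windows of this length in the table, 28.3% held it. In Clec12a a forward core at position -61 and a reverse core at -47 lie close together, in Clec4b1 a reverse core at -68 and a forward core at -39, and in Clec5a reverse cores at -81 and -55, counted from the transcription start. Clec7a holds 1 forward core, at -96, and Clec4a2 none. A match to these letters is a description of the window and not a binding site.

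**Figure D1:**
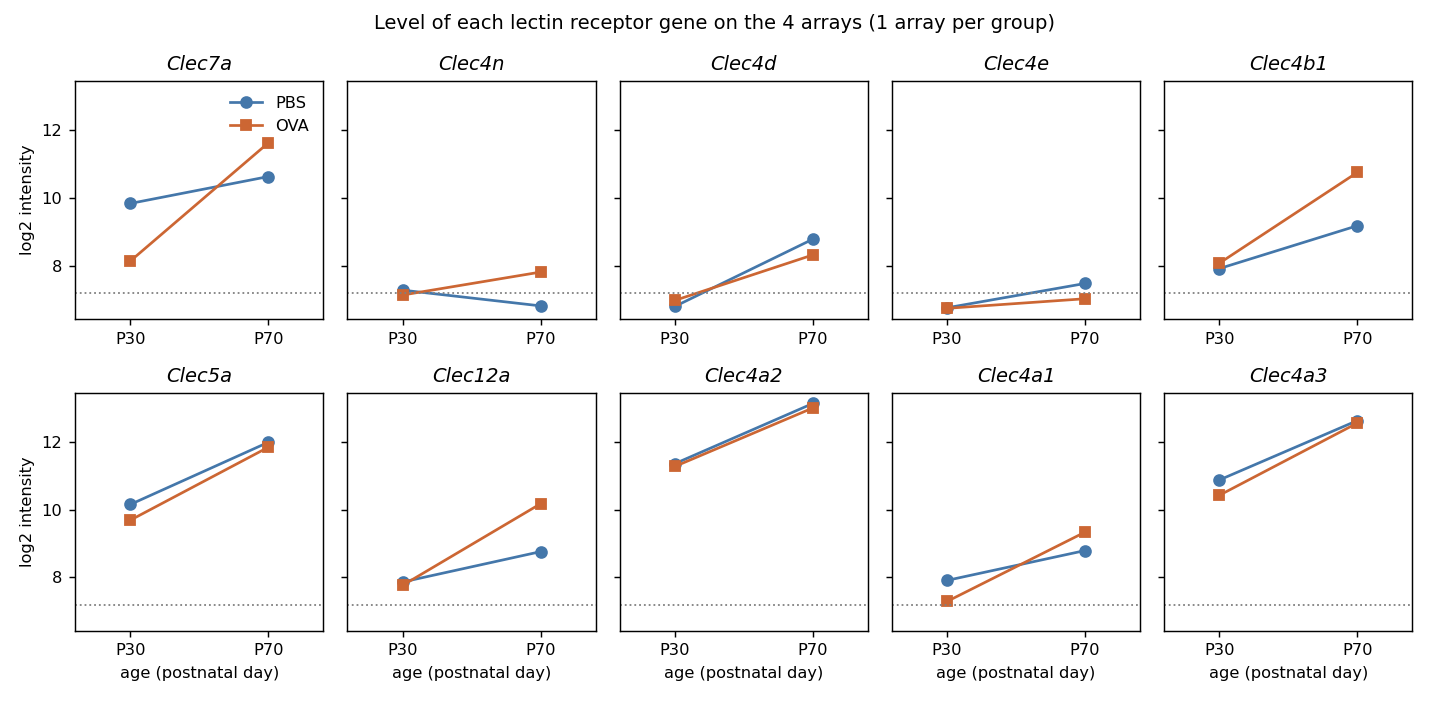
Level of each receptor gene (log2 intensity, vertical axis) at P30 and P70 (horizontal axis) on the PBS arrays (blue circles) and the OVA arrays (orange squares), 1 array per point with no error bars; lines join arrays of 1 treatment, and the dotted line is the level of 7.19 that defines expressed genes. Clec7a is lower in OVA at P30 and higher in OVA at P70, Clec12a and Clec4b1 lie close together at P30 and apart by treatment at P70, and Clec4a2, Clec4a3 and Clec5a are higher at P70 on both treatments.

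Comparing OVA with PBS at P30 asked whether the receptor genes of younger allergic mice departed from their control. Clec7a was the receptor with the largest difference and was lower in OVA, and Clec4a1 was lower to a smaller extent. Of the 9 expressed receptors, 2 were called lower and none higher, where 0.919% of the 8817 expressed genes were called lower and 0.658% higher. The median difference over the 9 was -0.15, against -0.01 over all expressed genes.

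Clec7a encodes dectin-1, the receptor for fungal beta-glucan. Its level at P30 was 9.84 in PBS and 8.13 in OVA, and at P70 it was 10.63 in PBS and 11.63 in OVA. The OVA array at P30 was thus the lowest of the 4, and the OVA array at P70 the highest. At P30 Clec7a stood 3.26-fold lower in OVA, a difference of -1.71 that ranked 4th from the lowest among the expressed genes, and -1.95 after quantile normalization.

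Clec4a1, also named Dcir4, belongs to the group of genes related to the dendritic cell immunoreceptor. At P30 it had levels of 7.90 in PBS and 7.28 in OVA, and at P70 of 8.79 in PBS and 9.33 in OVA. It was 1.54-fold lower in OVA at P30, just past the threshold. With 16 added to each intensity before the logarithm its difference was -0.575 and no longer called. The other DCIR relative, Clec4a3 or Dcir3, differed by -0.45 at P30.

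Clec5a, whose product signals through DAP12 and is known as a receptor for flaviviruses, was at 10.15 on the PBS array and 9.69 on the OVA array at P30, a difference of -0.47 that was not called. The remaining receptors differed by between -0.15 and 0.18 at P30, with Clec4d (0.18) and Clec4b1 (0.16) as those above 0. Clec4a2 and Clec12a, the receptors with an inhibitory motif, stood at -0.08 and -0.10.

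Neutrophil markers were lower in OVA on the same pair of arrays. Where 0.919% of all expressed genes were called lower, 7 of 13 expressed neutrophil markers were, and none higher, with a median of -0.89. The log2 of the intensity summed over all 15 measured markers of that list was 16.27 in PBS and 14.90 in OVA, and summed intensities of other lists are likewise over all measured members. Retnlg (-1.95), Ngp (-1.76) and S100a9 (-1.64) led them. Monocyte markers had a median of 0.02 and border-associated macrophage markers one of -0.23, with none of 7 and none of 10 expressed markers called. Of the latter, Ms4a7 (-0.58) fell just short of the threshold, and after quantile normalization 1 of the 10 was called lower. Pf4 stood at -0.39, Mrc1 at -0.46 and Dab2 at -0.35. The part of neutrophil RNA in the lower Clec7a and Clec4a1 was not tested.

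At P70 the same comparison asked how the receptors of older allergic mice stood against their control. Clec4b1, Clec12a, Clec4n and Clec7a were higher in OVA, by 2.0-fold to 2.98-fold. Clec4a2, Clec4a3 and Clec5a were close to equal on the OVA and PBS arrays, and Clec4d and Clec4e were lower in OVA without reaching the threshold. Of the 9 expressed receptors, 4 were called higher and none lower, where 4.05% of expressed genes were called higher and 1.21% lower. Clec4n is in that count only through its OVA array at P70: its mean of 7.25 is just above the expressed level, and 2 of its other 3 arrays lie below it. The median over the 9 was 0.55, against 0.09 over all expressed genes. The same count of 4 was obtained after quantile normalization, when 107 of 8817 expressed genes, 1.21%, were called higher.

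Clec4b1 encodes a receptor named DCAR, an activating relative of DCIR. At P30 it stood at 7.91 in PBS and 8.07 in OVA, and at P70 at 9.18 in PBS and 10.76 in OVA. The OVA array at P70 was the highest, and both P30 arrays lay below both P70 arrays. Clec4b1 was 2.98-fold higher in OVA at P70 (1.58, rank 9 from the highest of the expressed genes), and 1.27 higher after quantile normalization.

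Clec12a, also called MICL, is an inhibitory receptor known to respond to uric acid crystals and dead cells. Levels of 7.86 in PBS and 7.76 in OVA were measured at P30, then 8.76 in PBS and 10.17 in OVA at the older age. The P30 arrays were thus nearly level with each other, and the OVA array at P70 stood apart. At P70 it was 2.67-fold higher in OVA (1.42, rank 11), or 1.14 after quantile normalization.

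Clec7a was 2.0-fold higher in OVA at P70 (1.00, rank 45), the reverse of its direction at P30. Quantile normalization left its difference at 0.76. Clec4n, which encodes dectin-2, a receptor for fungal mannans, was close to the expressed level throughout. The P30 arrays gave 7.27 (PBS) and 7.13 (OVA), and the P70 arrays 6.81 (PBS) and 7.81 (OVA). The size of its difference, 1.00, is uncertain, because the PBS array at P70 lay below the level of 7.19. Clec4a1 was 1.46-fold higher in OVA (0.55) and was not called.

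The receptors on the other side were Clec4d and Clec4e. Clec4d encodes MCL, which pairs with the product of Clec4e, and had P30 levels of 6.79 (PBS) and 6.97 (OVA) and P70 levels of 8.78 (PBS) and 8.31 (OVA). Clec4e encodes Mincle, a receptor for mycobacterial glycolipids and for a protein of dying cells. It was at 6.75 and 6.73 at P30 and at 7.47 and 7.02 at P70, in PBS and OVA. At P70 the differences were -0.47 for Clec4d and -0.45 for Clec4e. These neighbouring genes thus lay on the same side at P70, and Clec4n, the gene next to Clec4d, on the opposite side.

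By role, the 6 activating receptors did not share a direction at P70: Clec4b1, Clec4n and Clec7a were called higher in OVA, and Clec5a (-0.15), Clec4d and Clec4e stood slightly lower. The inhibitory receptors also differed from each other, with Clec12a at 1.42 and Clec4a2 at -0.13.

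Some markers of other myeloid cells also differed between the P70 arrays. Among all expressed genes 4.05% were called higher in OVA and 1.21% lower. Of 10 expressed border-associated macrophage markers, 4 were called higher and none lower, with Pf4 from 9.51 to 11.47, Ms4a7 from 8.82 to 10.77, Dab2 from 8.27 to 9.58 and Mrc1 from 8.68 to 9.74. The summed intensity of that list was 16.04 in PBS and 16.41 in OVA. Most of that sum is Maf, at 15.96 and 16.27, so it says little of the other markers. Cd163, one of the defining markers of the list, was at 7.05 and 7.40. Of 7 expressed monocyte markers, 2 were called higher, S100a4 (1.16) and Treml4 (0.97), and the summed intensity was 14.45 in PBS and 14.61 in OVA. Most of the monocyte sum is Ly6c2, at 14.14 and 14.19. Treml4 is in the count of 2 only through its OVA array at P70 (8.05). Its other arrays (7.13, 6.73 and 7.08) lay below the expressed level. Neutrophil markers lay on the other side, with none of 13 expressed markers higher and 2 lower (3 after quantile normalization), Retnlg at -0.85 and summed intensities of 19.77 in PBS and 19.54 in OVA. Of 6 expressed dendritic cell markers, Cd209a (1.30) and Itgax (0.69) were called higher, and Xcr1, Flt3 and Zbtb46 were not expressed. After quantile normalization Itgax was at 0.52. The choroid plexus transcript Ttr went from 7.90 to 12.02, while the other 5 measured markers of that list were not expressed. The part of these cells in the higher Clec4b1, Clec12a, Clec4n and Clec7a, and in the lower values of Clec4d and Clec4e, was not tested.

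**Figure D2:**
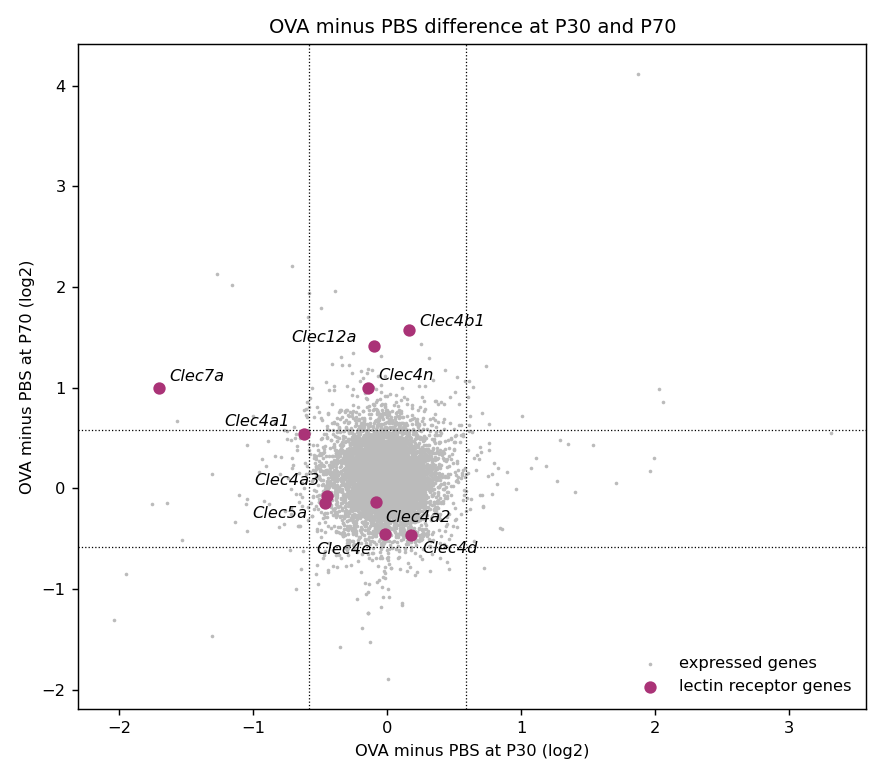
OVA minus PBS difference at P30 (horizontal axis) against that at P70 (vertical axis), both in log2 units, for the 8817 expressed genes (grey points) and the 10 receptor genes (purple points, named); dotted lines mark a 1.5-fold difference. Clec7a lies alone among the receptors at -1.71 and 1.00, while Clec4b1, Clec12a and Clec4n lie above the upper line at P70 and near 0 at P30.

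Setting the OVA differences of the 2 ages side by side showed where the receptors differed most between them. The 4 arrays are distinct, so these comparisons share none. Clec7a was called lower at P30 and higher at P70, as were 0.170% of the expressed genes. The P70 difference minus the P30 difference was 2.70 for Clec7a, 1.52 for Clec12a, 1.42 for Clec4b1, 1.17 for Clec4a1 and 1.15 for Clec4n. For Clec4a2 it was -0.05, for Clec5a 0.32 and for Clec4a3 0.38. Clec4d had the lowest value, -0.65. No test of these differences was possible with 1 array per group.

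Comparing P70 with P30 within a treatment set the ages against each other. Nearly all receptors were higher at P70, in both treatments, and the sizes differed by receptor. Of the 9 expressed receptors, 8 were called higher in PBS and none lower, where 29.0% of expressed genes were called higher and 3.03% lower. In OVA all 9 were called higher, where 38.6% were called higher and 4.38% lower. Clec4d, which is in both counts, passed the expressed filter through its P70 arrays. Clec4n, which is in the OVA count, passed it through its OVA array at P70. The 8 called in PBS were called in OVA too, and 26.1% of expressed genes were higher in both. Clec4e, outside the expressed genes, was higher by 0.72 in PBS and 0.28 in OVA. The medians were 1.27 in PBS and 2.14 in OVA as deposited, and 0.79 and 1.26 after quantile normalization. With that normalization 7 of the 9 were called higher in PBS and 8 in OVA, where 11.5% and 12.9% of expressed genes were.

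In PBS mice the largest age differences belonged to Clec4d (1.99), Clec5a (1.84), Clec4a2 (1.78) and Clec4a3 (1.76). The size for Clec4d is uncertain, because both of its P30 arrays lay below the expressed level and it passed that filter through its P70 arrays. Clec4a2 encodes DCIR, an inhibitory receptor of dendritic cells and macrophages. The P30 levels were 11.36 (PBS) and 11.28 (OVA) and the P70 levels 13.14 (PBS) and 13.01 (OVA), so that the arrays separated by age and hardly by treatment. Clec4a3 had the same order, at 10.88 and 10.42 at P30 and 12.64 and 12.56 at P70. Clec5a did too, at 10.15 and 9.69 and then 11.99 and 11.85.

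The size of these age differences depended on the scaling. After quantile normalization the PBS differences were 1.92 for Clec4d, 1.01 for Clec5a, 0.85 for Clec4a2 and 0.79 for Clec4a3. Clec4a2 in OVA went from 1.73 to 0.52 and was no longer called. Clec4a3 in OVA went from 2.14 to 0.99. Clec7a in PBS went from 0.80 to 0.03, and to 0.13 after centring along the level, and was called under neither. Clec4n alone had a negative age difference in PBS, -0.47, and 0.68 in OVA.

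In OVA mice the largest age difference was that of Clec7a, 11.3-fold (3.50, rank 27 from the highest of the expressed genes), and 2.74 after quantile normalization. Clec4b1 followed at 6.45-fold (2.69) and Clec12a at 5.34-fold (2.42), or 2.04 and 1.91 after that normalization. The PBS and OVA age differences add up with the OVA differences of the 2 ages, since they come from the same 4 arrays, and are no separate evidence.

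**Figure D3:**
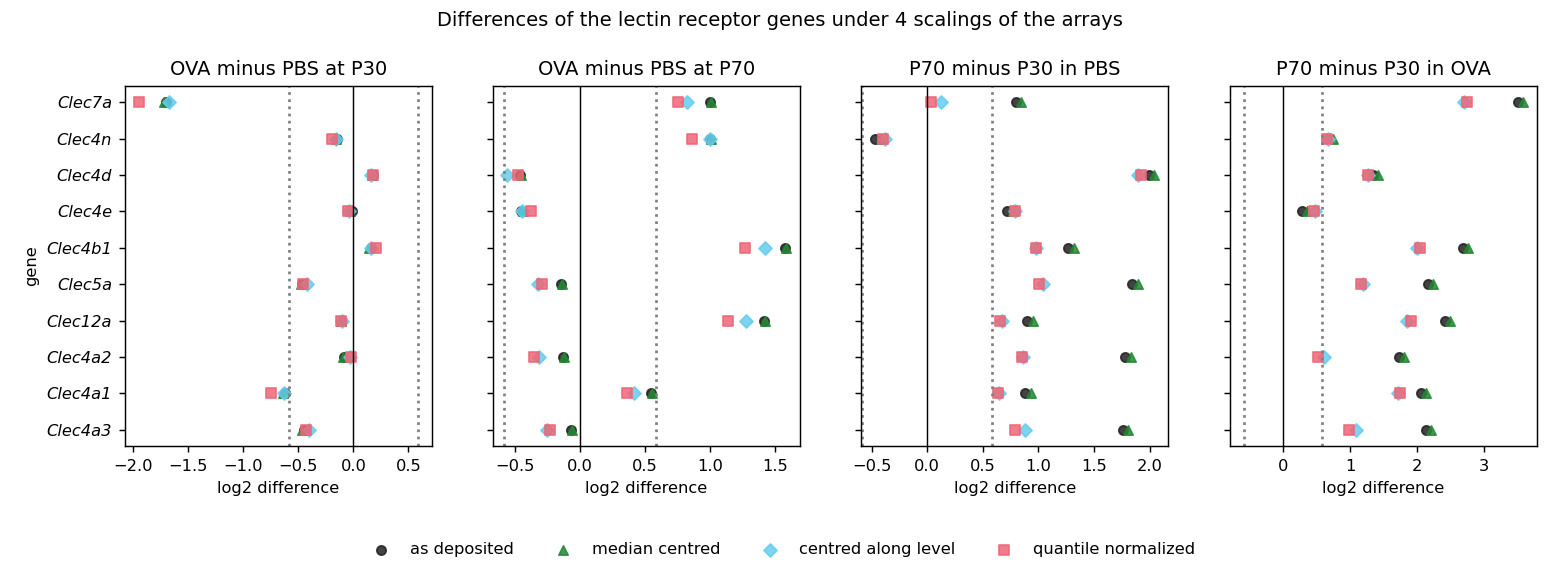
Log2 differences (horizontal axes) of the 10 receptor genes (rows) in the 4 comparisons (panels) as deposited (black circles), with each array centred on its median (green triangles), centred along the level (light blue diamonds) and quantile normalized (red squares); dotted lines mark 1.5-fold. Symbols lie close together in the OVA comparisons, while in the age comparisons the last 2 scalings shift Clec4a2, Clec4a3, Clec5a and Clec7a toward 0, Clec7a in PBS from 0.80 to 0.03.

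Neutrophil and monocyte markers differed with age too. Among all expressed genes 29.0% were called higher in PBS and 38.6% in OVA, and 11.5% and 12.9% after quantile normalization. Of 13 expressed neutrophil markers 11 were called higher in PBS and 11 in OVA, and after quantile normalization 10 were higher and 1 lower in each. The summed intensities of the list were 16.27 and 14.90 on the younger PBS and OVA arrays and 19.77 and 19.54 on the older ones. Of 7 expressed monocyte markers 6 were called higher in PBS and 7 in OVA, and the summed intensity of that list went from 11.23 to 14.45 in PBS and from 11.29 to 14.61 in OVA. At P70 most of the monocyte sum is Ly6c2, at 14.14 in PBS and 14.19 in OVA, so it says little of the other monocyte markers. Treml4, called in OVA alone, was expressed only through its OVA array at P70. S100a8, a neutrophil alarmin, went from 13.38 to 18.28 in PBS, and the monocyte gene Ly6c2 from 9.78 to 14.14. The summed intensity of the 13 microglia markers went from 19.36 to 19.64 in PBS and from 19.20 to 19.70 in OVA. A large part of that sum is Cx3cr1, the brightest of them. Its age differences, 0.05 in PBS and 0.19 in OVA, equal those between the highest values of the arrays. The sum therefore says little of the other microglia markers. Of the 13 microglia markers, 5 were called higher and 1 lower with age in PBS as deposited, and 1 higher and 6 lower after quantile normalization, so their direction with age is not settled. Among all expressed genes in PBS, 29.0% were higher and 3.03% lower as deposited, and 11.5% and 9.80% after quantile normalization. Receptors of this list, among them Clec4d, Clec4e, Clec5a and Clec12a, are also known as genes of neutrophils and monocytes. The part of these cells in the higher receptor levels at P70 was not tested.

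**Figure D4:**
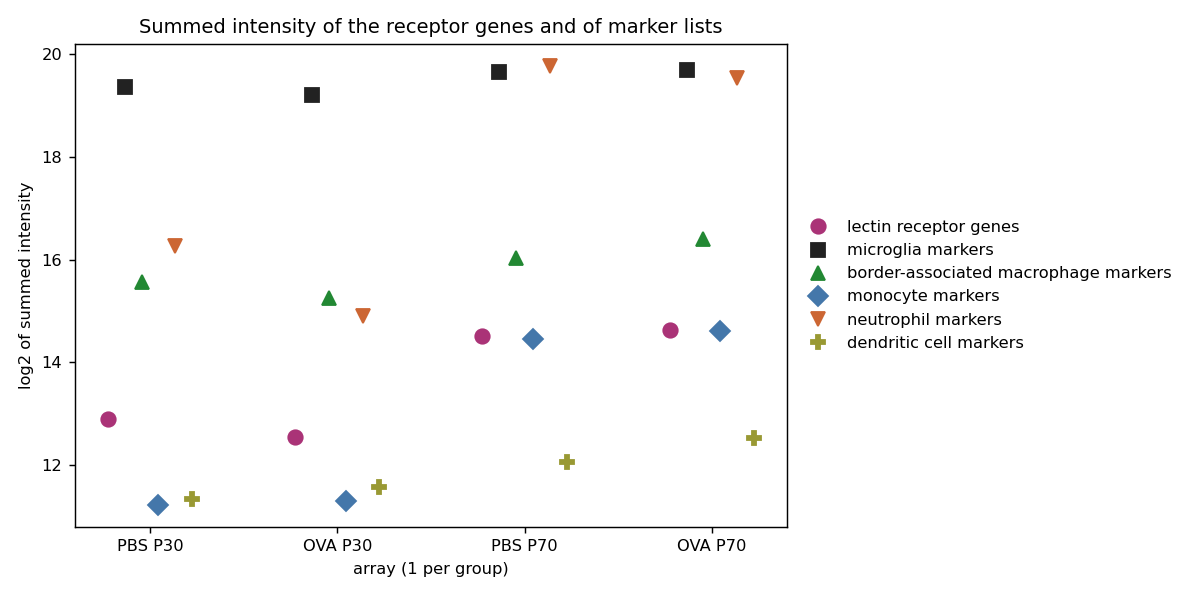
Log2 of the summed intensity (vertical axis) of the 10 receptor genes and of 5 marker lists on each of the 4 arrays (horizontal axis), 1 point per list and array with no error bars; points are offset sideways for legibility, and heights of different lists are not comparable. Neutrophil markers go from 16.27 and 14.90 at P30 to 19.77 and 19.54 at P70 in PBS and OVA, monocyte markers from 11.23 and 11.29 to 14.45 and 14.61, and microglia markers stay between 19.20 and 19.70. A large part of the microglia sum is Cx3cr1, which differed between arrays only as their highest values did. The border-associated macrophage sum is mostly Maf, at 15.96 and 16.27 at P70 in PBS and OVA. The monocyte sum at P70 is mostly Ly6c2, at 14.14 and 14.19.

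Signalling partners of the receptors were described from lists of their adaptors, kinases, inhibitors, transcription factors and target genes. Of 20 expressed activating adaptors and kinases none was called at P30 or at P70, with medians of -0.01 and 0.17. The largest differences at P70 were those of Vav1 (0.51), an exchange factor, and the phospholipase gene Plcg2 (0.44). Fcer1g, the adaptor of Clec4n, Clec4d, Clec4e and Clec4b1, was at P30 at 11.88 in PBS and 11.76 in OVA, and at P70 at 13.70 and 13.97. Tyrobp, the adaptor of Clec5a, was at 16.59, 16.68, 18.38 and 18.46 on the same arrays. Both adaptors were thus higher at P70 in both treatments, by 1.82 and 2.21 for Fcer1g and by 1.79 and 1.79 for Tyrobp in PBS and OVA as deposited. Quantile normalization left 0.82 and 1.00 for Fcer1g and 0.81 and 0.76 for Tyrobp. After centring along the level the Tyrobp differences were 0.50 and 0.38 and no longer called. In all, 4 of these 20 genes were called higher at P70 in PBS and 8 in OVA with none lower, where 29.0% and 38.6% of all expressed genes were higher, so these counts are no result about the partners. After quantile normalization 3 and 4 were higher, and 4 and 3 lower.

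Of 14 expressed phosphatases and other inhibitory regulators, none was called at P30 and 1 at P70, the adaptor gene Dok3 (0.65), which was at 0.45 after quantile normalization. Among 12 expressed transcription factors, Irf5 was called higher at P70 (0.67), and stood at 0.45 after that normalization, with none called at P30. Of 9 expressed cytokine and effector genes that such receptors can induce, 3 were called higher at P30 and 5 at P70 and none lower. Among all expressed genes 0.658% were called higher at P30 and 4.05% at P70. Ccl3 was higher by 2.03 at P30 and 0.99 at P70, Ccl4 by 0.71 and 0.75, and Il1a by 0.76 and 0.64. Ccl4 passed the expressed filter through its OVA arrays (7.59 and 7.87), while its PBS arrays (6.88 and 7.12) lay below that level. Nlrp3, the inflammasome sensor gene, was higher by 0.53 and 0.84. Il1a at P70 was no longer called after quantile normalization (0.44), when 3 of the 9 genes were higher and 1 lower at that age.

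Other C-type lectin genes were also measured. Of 49, 21 were expressed. None of these 21 was called at P30. At P70, 4 were called higher and none lower, with a median of 0.00, where 4.05% of expressed genes were called higher. They were Cd209a (1.30), a relative of the human receptor DC-SIGN, the mannose receptor gene Mrc1 (1.06), Clec2i (0.61) and Clec10a (0.59). Clec2i passed the expressed filter only through its OVA array at P70 (8.08). Its P30 arrays (6.96 in PBS and 7.01 in OVA) lay below the expressed level, and its PBS array at P70 was at 7.47. Cd209a went from 9.91 in PBS to 11.21 in OVA at P70. After quantile normalization Clec2i stood at 0.50 and Clec10a at 0.40, and were not called. With age, 5 of the 21 were called higher and 1 lower in PBS, with a median of 0.11. In OVA 10 were higher and 2 lower, with a median of 0.09, where 29.0% and 38.6% of expressed genes were higher in PBS and OVA. Clec2i (1.08) is in the OVA count of 10 through that same array. Cd302 was higher at P70 than at P30 by 1.27 in PBS and 1.33 in OVA (0.61 and 0.48 after quantile normalization, the latter not called). It differed by -0.02 between OVA and PBS at P70.

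Likeness of profiles over the 4 arrays was measured as the root mean square difference between log2 values, each gene taken minus its own mean. The expressed genes nearest to Clec7a were Smim15, Slamf9, Lilrb4a, Igsf6 and Mif, at 0.40 to 0.42 log2 units. Slamf9 was at 9.41 (PBS) and 8.82 (OVA) at P30 and 10.75 and 11.56 at P70, and Lilrb4a, an inhibitory receptor gene, at 8.80, 8.18, 10.54 and 11.32 in the same order. The mean profile of the 10 receptors ran from -0.60 (PBS) and -0.92 (OVA) at P30 to 0.55 (PBS) and 0.98 (OVA) at P70. Nearest to it were Tmem42, Ift20, BC005537, Polr2h and Reep5, at 0.02 to 0.05 log2 units. With 4 arrays such likeness is a description and carries no test.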

How the data were processed

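The deposited values are intensities, 1 per probe set and array, normalized by the authors; per the submitters' processing notes RMA and Affymetrix Expression Console 1.4.1 were used, with no roles given. They were taken as linear because the highest log2 values were 19.74 to 19.93. The scaling between arrays, the genome build and detection calls are not given in the sources used here. The highest receptor value was 13.14, well below those limits.

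Log2 values were computed with Python 3.11.15 and pandas 2.3.3, without a pseudocount. Of 65956 probe sets, 30604 carried 1 symbol in the platform annotation, 2146 several and 33206 none here. Symbols of 844 were updated through Entrez IDs. Predicted genes, small RNAs, chemosensory receptors and antigen receptor segments (12730 probe sets) were left out, and the brightest probe set represented a gene (198 genes had more than 1). With 1 array per group no test was made, and the calling step was tested on simulated data. Members, gene lists and thresholds were chosen with earlier results of these data known. Named genes were all receptors, the 4 most different and 2 brightest of each list, the 5 nearest profiles and chromosomal neighbours; not every one is printed. Xcr1, Flt3 and Zbtb46 were singled out after their values were seen. Alternatives covered filters, scaling, probe sets, threshold and a pseudocount of 16.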

Additional observations from a re-analysis of the deposited data

Results flagged for a closer look

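Clec7a stands out because its OVA minus PBS difference had opposite directions at the 2 ages and passed 1.5-fold at each, -1.71 at P30 and 1.00 at P70. The P70 difference minus the P30 difference was 2.70. The difference between ages was not tested, since each group is 1 array. Neutrophil and border-associated macrophage markers differed on the same arrays, with Ms4a7 of the latter at -0.58 at P30 and 1.94 at P70. The part of these cells in the Clec7a differences was not tested.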

How the results depend on the processing

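No paired analysis was possible because each group has 1 array, and for the same reason no replicate could be left out. The counts of receptors called higher or lower in the 4 comparisons stayed within 1.5 times of the reported count under the alternatives run, with these exceptions. The 2 receptors lower in OVA at P30 became 1 with a filter at the 75th percentile of mean levels, 1 at a 2-fold threshold and 1 with a pseudocount of 16, where 1.25%, 0.204% and 0.783% of the genes tested were lower. The 8 receptors higher at P70 in PBS became 5 at a 2-fold threshold, where 13.5% of expressed genes were higher. At that threshold 3 receptors were higher in OVA at P70, where 0.488% of expressed genes were. Among single receptors no called difference reversed under another scaling, probe set rule or pseudocount, and the calls lost were those of Clec4a1 at P30 (-0.575 with the pseudocount), Clec7a with age in PBS (0.03 after quantile normalization and 0.13 after centring along the level) and Clec4a2 with age in OVA (0.52 after quantile normalization); their cause was not tested. Over all expressed genes, 357 were higher in OVA at P70 as deposited, against 179 with centring along the level and 107 with quantile normalization. For age, 2561 were higher at P70 in PBS and 3402 in OVA as deposited, and 1017 and 1137 after quantile normalization. Those lower at P70 numbered 267 and 386 as deposited, and 864 and 1043 after quantile normalization. At P30, 58 were higher and 81 lower as deposited, and 100 and 115 with quantile normalization. Low signal limits Clec4e, Clec4n and Clec4d, which had 3, 2 and 2 arrays below the expressed level.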

Other observations

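Genes that microglia raise around amyloid plaques, a programme that Clec7a is known to belong to, were described apart from it. Of 12 expressed genes of that list, 3 were lower in OVA at P30, Ccl6 (-1.11), Lyz2 (-0.93) and Lilrb4a (-0.62), and 3 were higher at P70, Lilrb4a (0.78), Cst7 (0.76) and Itgax (0.69). The matching shares over the whole set of expressed genes were 0.919% and 4.05%. Itgax was counted above with the dendritic cell markers as well. After quantile normalization none of the 12 was called higher at P70, with Lilrb4a and Cst7 each at 0.54. Lilrb4a alone of these was called in opposite directions at the 2 ages, as Clec7a was.

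Another 6 motifs were looked up on both strands in the first promoter window listed for each of the 9 receptors. The AP-1 letters TGANTCA were in the windows of Clec4a2 and Clec12a and in 7.81% of all windows. The C/EBP letters TTGCNNAA were in Clec4e and Clec12a and in 10.8% of all windows. A STAT6 motif was in the windows of Clec5a, Clec4a1 and Clec7a and in 6.95% of all windows, and an IRF motif in those of Clec4b1 and Clec4d and in 3.44% of all. A PU.1-IRF composite motif was in Clec4a1 and Clec7a and in 2.72% of all windows. A loose kappaB motif was in Clec4a1 alone of the 9 and in 50.8% of all windows. These matches describe the letters of the windows alone.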
